A study of Mus musculus with 2 samples.

Results

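Serine proteases and cathepsins are the peptide-cutting enzymes described here, taken as every gene whose symbol begins with Prss, Tmprss, Htra or Klk and a number, or is Cts and a single further character. On the array 89 genes, read by 130 probe sets with 1 gene symbol each, met this definition, of 18193 genes and 34945 such probe sets in all. Both implantation serine protease genes, Prss28 and Prss29, are among them. The samples were 1 array for the Msx1Msx2-null genotype, in which floxed Msx1 and Msx2 were ablated with PRcre, and 1 array for the floxed control genotype, both in C57BL/6 mice on day 4 of pregnancy. Each array held pooled RNA of uterine stromal cells left after epithelial clumps had been discarded, from 5 mice per genotype by the design text and 4 by the extraction protocol. PRcre expresses Cre from the progesterone receptor locus, so deletion is directed to progesterone receptor-positive cells, epithelium included, and is not restricted to stroma. Whether the control mice carried Cre was not stated.

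Trypsin-like serine proteases are made as inactive precursors and work outside the cell or at its surface, where they process matrix, growth factors, channels and other proteases. Prss28 and Prss29, also called implantation serine proteinases, are secreted by the uterine glands of the mouse around implantation and are known to depend on progesterone. Cathepsins are mainly lysosomal enzymes of cysteine, aspartic or serine type. They break down proteins taken up by the cell, and cathepsins B and L are known from the decidualizing mouse uterus.

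Each value is a signal intensity in arbitrary units, and each genotype has a single array without replicate error, so no test was possible. A difference between arrays cannot be told apart from a difference between the pooled mice, the cell preparations or the hybridizations. Nor can fewer cells of a type be told apart from less RNA per cell. A floor at the median signal of an array, 30.1 in the null and 31.0 in the control array, separated usable from dim signals. A ratio with 1 signal under the floor is a bound, written "at least". The log2 ratios of both brightest probe sets of the same gene gave an SD of 0.27 for a single probe set over 4690 genes, which covers probe noise and not mice or hybridizations. Msx1 had signals of 23.0 in the null and 1581 in the control array, and Msx2 had 14.5 and 63.7, which goes with the labels. The 3'/5' signal ratio, which is higher in degraded RNA, was 1.28 in the null and 0.967 in the control array for Gapdh. For Actb it was 2.33 in the null and 1.80 in the control array. Both ratios were higher in the null array, so a difference in RNA quality cannot be told apart from genotype.

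The promoters of Prss28 and Prss29 are shown because these neighbouring genes had the largest differences among the proteases, and that of Ctsd because it was the cathepsin gene at least 2-fold higher in the null array. Each is the RefSeq window of GRCm38.p6 from 250 bases before to 50 after the gene's start, read 5′ to 3′ along the gene. Capitals mark exact matches, on either strand, to a TATA box (TATAAA), a steroid receptor half-site (TGTTCT), an E-box (CACGTG), a FOXA core (TGTTTAC) or a homeodomain core (TAATTG). The windows are chr17:25308396-25308695 on the plus strand for Prss28, chr17:25318404-25318703 on the plus strand for Prss29 and chr7:142387778-142388077 on the minus strand for Ctsd.
Prss28: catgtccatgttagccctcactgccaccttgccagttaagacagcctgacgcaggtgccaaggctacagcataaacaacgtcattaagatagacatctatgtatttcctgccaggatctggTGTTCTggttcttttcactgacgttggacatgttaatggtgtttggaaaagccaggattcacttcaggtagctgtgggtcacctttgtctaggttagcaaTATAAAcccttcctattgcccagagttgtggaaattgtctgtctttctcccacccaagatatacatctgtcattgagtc
Prss29: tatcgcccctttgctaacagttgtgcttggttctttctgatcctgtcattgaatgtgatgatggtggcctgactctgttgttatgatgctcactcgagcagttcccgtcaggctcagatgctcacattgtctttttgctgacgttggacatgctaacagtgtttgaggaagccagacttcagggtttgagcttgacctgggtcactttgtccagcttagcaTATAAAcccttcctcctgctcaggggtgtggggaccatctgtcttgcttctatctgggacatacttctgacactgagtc
Ctsd: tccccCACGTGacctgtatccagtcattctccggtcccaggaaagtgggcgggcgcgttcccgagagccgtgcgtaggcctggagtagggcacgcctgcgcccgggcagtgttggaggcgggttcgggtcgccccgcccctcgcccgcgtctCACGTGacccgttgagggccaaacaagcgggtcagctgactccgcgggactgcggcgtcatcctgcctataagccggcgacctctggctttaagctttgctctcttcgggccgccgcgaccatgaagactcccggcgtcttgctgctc

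The Prss28 and Prss29 windows begin 10008 bases apart and resemble each other. In a global alignment 193 of 308 columns were identical (62.7%), against 46.3% for Prss28 with Ctsd and 46.7% for Prss29 with Ctsd. Each has a TATA box that begins 29 bases before the start. They share a run of 15 bases that begins 112 bases before the start of Prss28 and 113 before that of Prss29. Another shared run of the same length spans the TATA box. Prss28 also holds 1 steroid receptor half-site, 129 bases before the start, and neither window holds a FOXA or homeodomain core. The Ctsd window holds 2 E-boxes, 245 and 98 bases before the start. Of the promoters of 27025 genes, 14.1% hold the TATA box, 19.2% the half-site, 7.09% the E-box, 3.58% the FOXA core and 8.13% the homeodomain core. Of 71 member promoters in the table, 9 hold the TATA box, 14 the half-site, 7 the E-box, 1 the FOXA core and 3 the homeodomain core. These matches are letters in a window and show no binding.

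Of the 89 genes, 29 (32.6%) had a signal above the floor in at least 1 array, against 11833 of all 18193 genes. Of these 29, 24 were above it in both arrays and 5 in 1 array. In the null array 2 were at least 2-fold higher, where 1.59% of 11833 genes used were, and 5 were at least 2-fold lower, where 1.80% of the genes used were. The 2 higher genes were Htra1 and Ctsd, and the 5 lower were Prss28, Prss29, Prss12, Tmprss11a and Ctse. The calls of Prss12, Tmprss11a and Ctse were each lost under at least 1 other setting or choice of probe set. Over the 24 genes measured in both arrays the median log2 ratio of null over control was -0.21, beside 0.02 over all genes measured in both arrays.

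**Figure D1:**
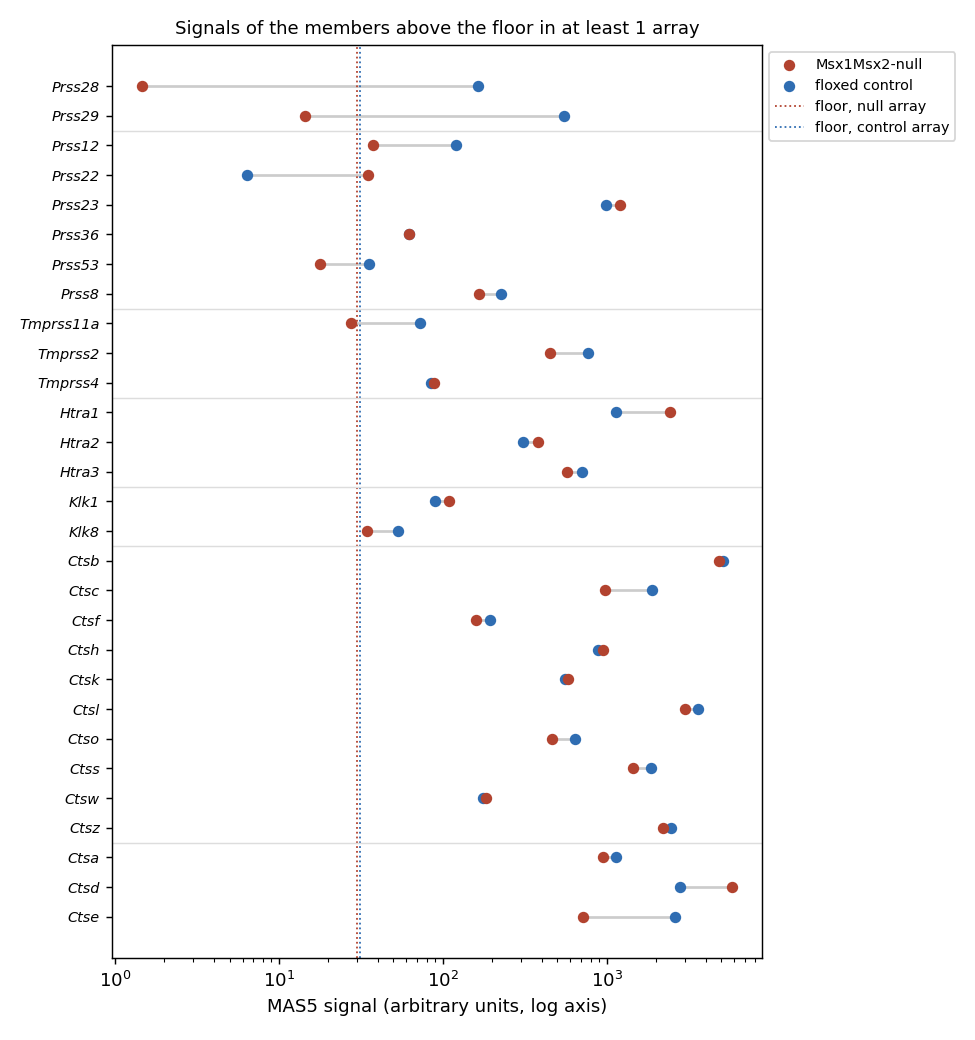
Signal of each of the 29 protease genes above the floor in at least 1 array, on a log axis in arbitrary units. Red points are the null array, blue points the control array, dotted lines the floors, and grey lines separate the families. Prss28 and Prss29 lie under the floor in the null array and at 164 and 546 in the control array.

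**Figure D2:**
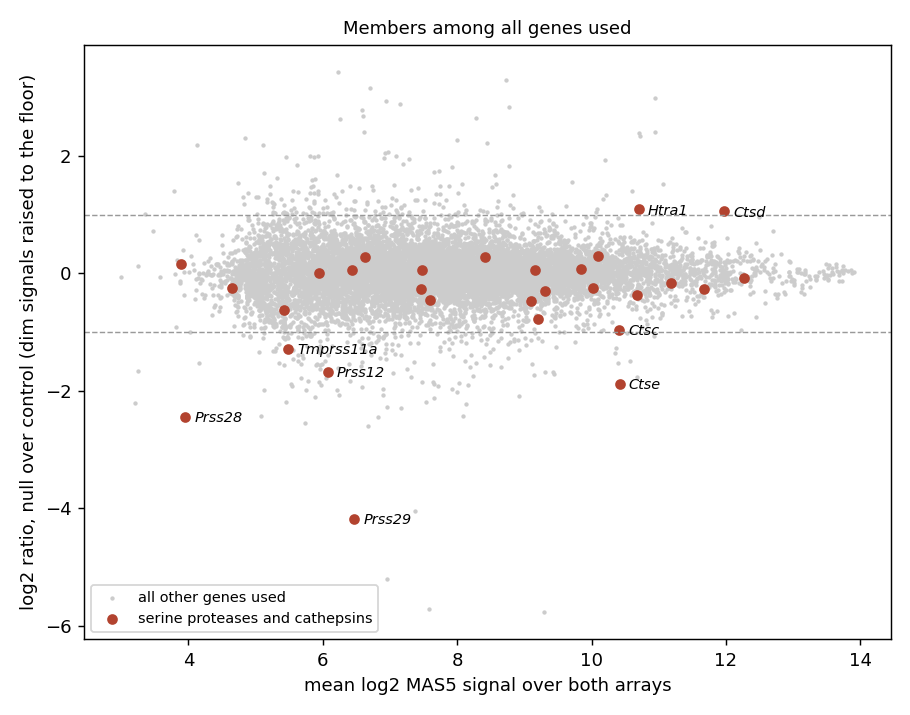
Log2 ratio of null over control against the mean log2 signal for every gene used, with the 29 proteases in red and dashed lines at 2-fold. Prss28, Prss29, Ctse, Prss12 and Tmprss11a lie below the lower line, and Htra1 and Ctsd above the upper line.

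Both implantation protease genes were under the floor in the null array and well above it in the control array. Prss28 had a signal of 1.46 in the null array, against 164 in the control array, at least 5.45-fold lower. Prss29 had 14.3 in the null array and 546 in the control array on the probe set that stands for it, at least 18.2-fold lower. Another probe set had 4.11 in the null array and 865 in the control array, at least 28.8-fold lower. The third had 26.4 in the null array and 109 in the control array, at least 3.63-fold lower. All 3 Prss29 probe sets thus lay under the floor in the null array and above it in the control array. Because the genes are close relatives, a probe set of one may also read the other.

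On the genome Prss28 and Prss29 are adjacent on chromosome 17, with the tryptase genes Tpsb2 and Tpsg1 next in line. Tpsb2, a tryptase of mast cells, had 11.2 in the null and 15.0 in the control array. Tpsg1, a membrane-anchored tryptase, had 7.35 in the null and 12.3 in the control array. Both tryptase genes were therefore under the floor in both genotypes. On the other side, Prss34 lies next to Prss28 and had no probe set with 1 gene symbol, so it was not read. The channel gene Cacna1h, the next protein-coding gene, had 46.2 in the null and 71.2 in the control array.

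Markers of uterine gland epithelium moved with Prss28 and Prss29. All 8 genes of that list were lower in the null array, 7 of them at least 2-fold, and their median log2 ratio was -2.13. Their summed signal was 1636 in the null and 10928 in the control array. Foxa2, the transcription factor that gland formation needs, had 87.4 in the null and 397 in the control array. Sox9, the list member closest to the control level, had 123 in the null and 192 in the control array. The list was chosen with these values known, so its direction is no independent evidence. Markers of epithelium in general were closer, with a median of -0.13 over 13 genes and a summed signal of 10062 in the null and 11696 in the control array. Epcam, the epithelial adhesion molecule, had 940 in the null and 987 in the control array, and Krt18 and Krt19 were past 2-fold in opposite directions, at -1.06 and 1.04 on the log2 scale. Stromal fibroblast markers had a median of 0.15 over 11 genes, with 0 past 2-fold, and Col1a2, a fibrillar collagen chain, had 12448 in the null and 11212 in the control array. What part the gland cells had in the Prss28 and Prss29 difference was not tested.

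**Figure D3:**
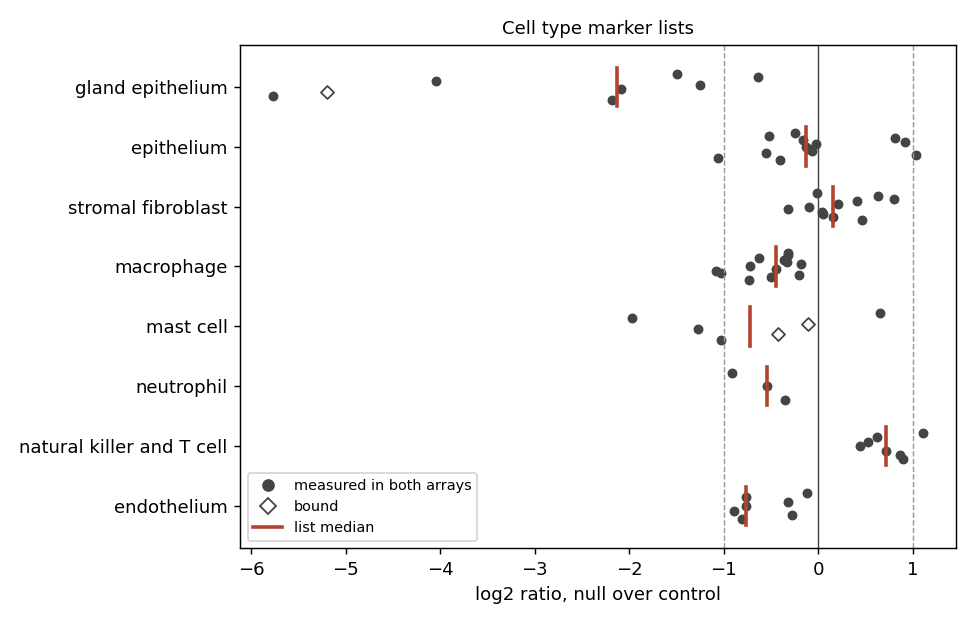
Log2 ratio of null over control for the marker genes of each cell type, 1 point per gene, with the list median in red and dashed lines at 2-fold. Open diamonds are bounds. Gland epithelium has a median of -2.13, macrophages -0.45, and natural killer and T cells 0.71.

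Of the other Prss genes, 6 of 29 were usable and 1 passed 2-fold. Prss12, which encodes neurotrypsin, a protease known from synapses, had 37.8 in the null and 120 in the control array, 3.19-fold lower. Its null signal lies close to the floor, and raising the floor to the 65th percentile left a log2 ratio of -0.57, short of 2-fold. Prss8 encodes prostasin, a membrane-anchored activator of the epithelial sodium channel, and had 165 in the null and 226 in the control array, a log2 ratio of -0.45. The channel subunit gene Scnn1b had 115 in the null and 70.7 in the control array, a log2 ratio of 0.70, while Scnn1a and Scnn1g were under the floor in both. Prss23, a secreted protease, was higher in the null array on each probe set. It had 1208 in the null and 985 in the control array on the main probe set, and 734 in the null and 434 in the control array on the second, log2 ratios of 0.29 and 0.76. The third probe set was under the floor in the control array, with 53.1 in the null and 22.2 in the control array. Prss36 was close in both, at 61.9 in the null and 61.8 in the control array.

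Prss22 and Prss53 stood just across the floor in 1 array each. Prss22, a tryptase of epithelia, had 34.9 in the null and 6.35 in the control array, at least 1.12-fold higher. Without raising the dim control signal its log2 ratio was 2.46. Prss53 had 17.8 in the null and 35.6 in the control array, at least 1.19-fold lower. Both genes thus lay close to the floor in the array where they were brighter.

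Type II transmembrane serine proteases are anchored in the plasma membrane with the catalytic part outside. Of 12 Tmprss genes, 3 were usable. Tmprss2, an androgen-responsive protease of epithelia, had 448 in the null and 771 in the control array, a log2 ratio of -0.78. Its 2 further probe sets measured in both arrays had log2 ratios of -0.75 and -0.99, so all 3 were lower in the null array and 0 reached 2-fold. Tmprss11a had 27.5 in the null and 72.9 in the control array, at least 2.43-fold lower. This call was lost with an offset of 30 in place of the floor, at a log2 ratio of -0.84, and with the floor at the 65th percentile the gene was under it in both arrays. Tmprss4 was close in both, at 88.3 in the null and 84.3 in the control array. Of the 4 usable genes in the list of related membrane proteases and their targets, 0 passed 2-fold. Among them St14, which encodes matriptase, had 206 in the null and 191 in the control array.

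HtrA proteases act in protein quality control and on secreted matrix and growth factor proteins. Htra1, a secreted protease that cuts matrix proteins and is linked to TGF-beta signalling, had 2435 in the null and 1138 in the control array, 2.14-fold higher. Its second probe set had 2283 in the null and 1119 in the control array, 2.04-fold higher, so both passed 2-fold. Among 11137 genes measured in both arrays it had the 99th highest ratio. Htra3, a secreted relative known from decidua and placenta, had 572 in the null and 706 in the control array, a log2 ratio of -0.30. Htra2, a mitochondrial protease, had 378 in the null and 310 in the control array, a log2 ratio of 0.29. The ratios of Htra2 and Htra3 had opposite signs but were close in size to the single probe set SD of 0.27. Whether the HtrA genes share a direction cannot be read from them. Htra4 was under the floor in both arrays.

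Of 20 kallikrein genes, which include Klk1b7-ps, a pseudogene by its symbol, 2 were usable. Klk1, tissue kallikrein, which releases kinins from kininogen, had 109 in the null and 89.6 in the control array, a log2 ratio of 0.28. Its 3 other probe sets were under the floor in both arrays, so this value rests on a single probe set whose probes may match relatives. Klk8 had 34.6 in the null and 53.2 in the control array, a log2 ratio of -0.62 close to the floor.

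Of 22 cathepsin genes, 13 were above the floor, each of them in both arrays. Among the 4 aspartic and serine cathepsin genes the largest differences ran in opposite directions. Ctsd, the main aspartic protease of lysosomes, had 5821 in the null and 2792 in the control array, 2.08-fold higher, and it has 1 probe set. Ctse, a related aspartic protease of endosomes, had 713 in the null and 2623 in the control array on the probe set that stands for it, 3.68-fold lower. This was the 23rd lowest ratio among the 11137 genes. The second Ctse probe set had 202 in the null and 214 in the control array, a log2 ratio of -0.08, so the probe sets disagree and the call rests on the first. Ctsa, a carboxypeptidase that protects other lysosomal enzymes, had 954 in the null and 1134 in the control array, a log2 ratio of -0.25. Ctsg, a serine protease of neutrophil granules, was under the floor in both arrays.

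**Figure D4:**
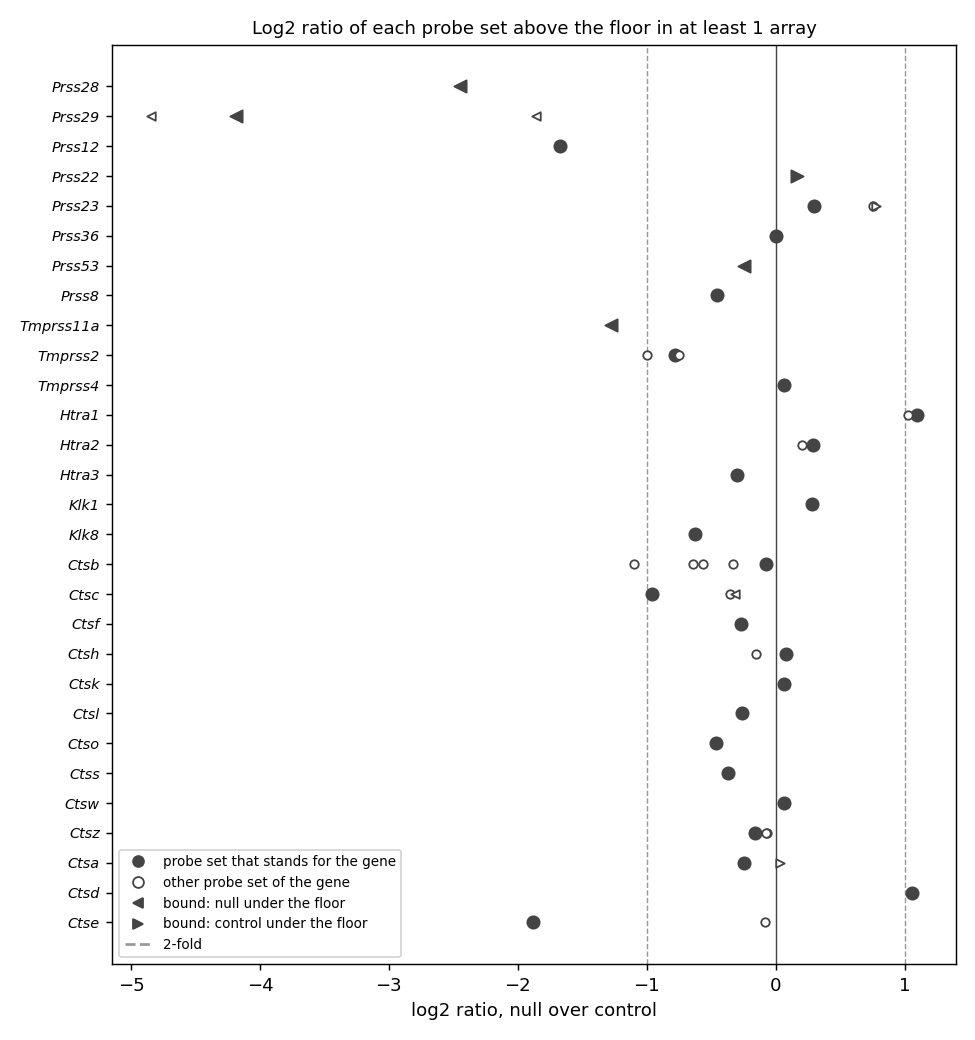
Log2 ratio of null over control for each probe set of the 29 genes that was above the floor in at least 1 array. Filled symbols are the probe set that stands for the gene, open symbols its other probe sets, triangles are bounds pointing the way the true ratio may extend, and dashed lines mark 2-fold. The Htra1 probe sets lie together, whereas those of Ctse and Ctsb are spread over 1.80 and 1.02 log2 units.

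All 10 cysteine cathepsin genes were measured in both arrays. Of them 0 passed 2-fold, where 1.59% of all genes used were higher and 1.80% lower. Their log2 ratios ran from -0.96 to 0.08, with 7 below 0 and a median of -0.21. Of all 11833 genes used, 5648 were below 0. Ctsc, dipeptidyl peptidase I, which activates granzymes and the serine proteases of mast cells and neutrophils, had 976 in the null and 1896 in the control array, a log2 ratio of -0.96. Its second probe set was dimmer, at 64.4 in the null and 82.5 in the control array, with a log2 ratio of -0.36. Ctsb, which encodes cathepsin B, had 4825 in the null and 5091 in the control array, a log2 ratio of -0.08. Its 4 dimmer probe sets had log2 ratios of -0.33, -0.57, -0.64 and -1.10, so all 5 were lower in the null array by unequal amounts. Ctsl, which encodes cathepsin L, had 2992 in the null and 3585 in the control array, a log2 ratio of -0.26. Ctso had 466 in the null and 642 in the control array, a log2 ratio of -0.46.

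The remaining cysteine cathepsins were within 1.3-fold. Ctss, which trims the invariant chain of MHC class II in antigen-presenting cells, had 1440 in the null and 1865 in the control array. Ctsf had 160 in the null and 193 in the control array, and Ctsz, a carboxypeptidase, had 2197 in the null and 2456 in the control array. Ctsk, a collagen-degrading enzyme of osteoclasts and fibroblasts, had 582 in the null and 558 in the control array. Ctsh, an aminopeptidase, had 943 in the null and 890 in the control array, and its second probe set had the opposite sign. Ctsw, a cathepsin of natural killer and cytotoxic T cells, had 183 in the null and 175 in the control array.

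Immune cell markers differed beside these genes. All 13 macrophage markers were lower in the null array, with a median log2 ratio of -0.45 and a summed signal of 7774 in the null and 10848 in the control array. Csf1r, the receptor that defines macrophages, had 909 in the null and 1286 in the control array. Of 6 usable mast cell markers 5 were lower, with a median of -0.73. Cpa3, the mast cell carboxypeptidase, had 61.3 in the null and 148 in the control array, and the defining receptor gene Fcer1a was under the floor in both. The summed mast cell signal was 1791 in the null and 1749 in the control array. Most of it came from Hdc, the histamine-forming enzyme, with 1516 in the null and 968 in the control array. All 7 usable natural killer and T cell markers were higher, with a median of 0.71 and a summed signal of 3364 in the null and 1913 in the control array. Gzmb, a granzyme that cathepsin C activates, had 1371 in the null and 752 in the control array, opposite to Ctsc. All 3 usable neutrophil markers were lower, with a median of -0.54 and a summed signal of 165 in the null and 241 in the control array. All 7 endothelial markers were lower as well, with a median of -0.76. The part of these cells in the cathepsin differences was not tested.

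Of 16 other lysosomal genes, 0 passed 2-fold, where 1.59% of all genes used were higher and 1.80% lower. The median log2 ratio was 0.02, with 10 above 0 and 6 below. Lamp1, a lysosomal membrane protein, had 2613 in the null and 2440 in the control array, and Psap, a precursor of sphingolipid activators, had 3278 in the null and 3143 in the control array. Lgmn, the lysosomal enzyme that processes cathepsin precursors, had 582 in the null and 877 in the control array, a log2 ratio of -0.59. Mcoln1, a calcium channel of the lysosomal membrane, had 231 in the null and 155 in the control array, a log2 ratio of 0.57. Of 10 promoters of cysteine, aspartic and serine cathepsins in the table, 3 hold an E-box, those of Ctsd, Ctsf and Ctsl. The log2 ratios of these genes were 1.06, -0.27 and -0.26. Over all members 7 of 71 promoters hold it, and over 27025 genes 7.09% do. Whether the cathepsin count differs from these shares was not tested.

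Cystatins inhibit cysteine cathepsins. Cst3, a secreted cystatin, had 2501 in the null and 3375 in the control array, a log2 ratio of -0.43, and Cstb, an intracellular one, had 2606 in the null and 2527 in the control array. None of the 3 usable cystatins passed 2-fold. Of 11 usable serine protease inhibitors, 2 were at least 2-fold higher and 3 lower, beside 1.59% and 1.80% of all genes used. This list was also chosen with earlier results of these data known, so its counts are no independent evidence. A2m, a broad protease trap, had 1328 in the null and 135 in the control array, and Spink8 had 253 in the null and 36.7 in the control array. Spink1, a trypsin inhibitor of uterine glands, had 85.2 in the null and 4657 in the control array. Wfdc3 had 40.9 in the null and 676 in the control array. Spink1 and Wfdc3 are also in the gland list. Serpina3n, the remaining lower gene, is not in that list. It had 0.961 in the null and 94.6 in the control array, at least 3.15-fold lower. Spint1 and Spint2, inhibitors of prostasin and matriptase, were within 2-fold, at -0.25 and -0.15 on the log2 scale.

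The other 60 genes of the definition were under the floor in both arrays, which is no evidence that they are silent. The 8 cathepsins known from the mouse placenta, Cts3, Cts6, Cts7, Cts8, Ctsj, Ctsm, Ctsq and Ctsr, had signals between 0.724 and 6.52 in the null array and between 0.243 and 5.31 in the control array. Of 6 blastocyst markers on the array 5 were dim in both genotypes. One of these was Cdx2, with 1.91 in the null and 5.54 in the control array. The sixth, Elf5, was above it in the null array, with 37.2 in the null and 10.7 in the control array. The 18 kallikreins under the floor were Klk4, Klk5, Klk6, Klk7, Klk9, Klk10, Klk11, Klk12, Klk13, Klk1b1, Klk1b5, Klk1b7-ps, Klk1b8, Klk1b11, Klk1b16, Klk1b21, Klk1b24 and Klk1b27, with signals of at most 12.8 in the null and 16.9 in the control array. The Klk1b genes are near copies of each other, so their probe sets cannot be assigned to a single gene with confidence.

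The 23 dim Prss genes had signals of at most 24.7 in the null and 20.9 in the control array. They included the pancreatic trypsins Prss2 and Prss3, the thymic protease Prss16, and Prss21, Prss27, Prss30, Prss32, Prss35, Prss37, Prss39, Prss40, Prss41, Prss42, Prss44, Prss45, Prss46, Prss50, Prss51, Prss52, Prss54, Prss55, Prss56 and Prss58. The 9 dim Tmprss genes, with at most 21.4 in the null and 22.4 in the control array, were Tmprss3, Tmprss5, Tmprss6, Tmprss13, Tmprss15, Tmprss11d, Tmprss11e, Tmprss11f and Tmprss11g. Tmprss15 encodes enteropeptidase, the activator of trypsinogen, and Tmprss6 matriptase-2 of the liver. Of the chromosome 17 Prss genes in the definition, Prss28 and Prss29 thus had a signal above the floor in control cells. Prss21, Prss27, Prss30, Prss32 and Prss41 were under it, and Prss22 was above it in the null array. Prss34, next to Prss28, was not read.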

How the data were processed

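RNA was pooled per genotype and hybridized to Affymetrix 3' arrays. The authors deposited an intensity on a linear scale for each probe set, and the submitters' processing notes name MAS5 and Affymetrix Expression Console 1. The 2% trimmed mean was 150.001 in both arrays, so a common scaling had been applied. Neither detection calls nor scaling settings are given in the sources used here. Since MAS5 subtracts mismatch signal, ratios of dim probe sets are unstable.

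The table held 45101 probe sets, 64 of them controls. The platform annotation gave 1 symbol for 34945, several for 932 and none for 9160, and 3 probe sets with several symbols named a protease and were left out. All 89 members matched the GRCm38.p6 RefSeq table by gene ID, with 0 changed symbols, and 71 had a promoter there. No coordinates of probe sets are given, since no build was named for them.

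Signals were taken as log2 without further scaling, and ratios are null over control. Each gene was represented by the brightest of its probe sets (mean log2 signal) and used where at least 1 signal was above the 50th percentile of the array's non-control probe sets, with lower signals raised to that floor. Genes were called at 2-fold and no p-value was computed, with 1 array per genotype. The arithmetic was checked on simulated signals without noise and with known ratios, for genes above the floor in both arrays. That check covers neither the bounds nor how reliable a 2-fold call is. Every usable member was named, with all probe sets above the floor of those called, and dim members by family. From the marker and partner lists, examples beyond the defining or most changed genes were chosen after their values were seen. Members and lists were chosen with earlier results of these data known. Pandas 2.3.3, numpy 2.4.6 and Biopython 1.88 (global alignment) were used. The alternatives were no floor, a floor at the 65th percentile, the floor as a filter alone, the median over probe sets, no _x_at and _s_at probe sets, quantile normalization, and an offset of 30. The number of arrays limits the precision.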

Additional observations from a re-analysis of the deposited data

How the results depend on the processing

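Each genotype had a single array, so no replicate could be left out. A paired analysis was not possible for the same reason, and no test was made. Of the 7 alternatives, quantile normalization gave the main counts of 2 higher and 5 lower protease genes. With no floor all 89 genes entered, 20 were at least 2-fold higher and 23 lower, beside 9.88% and 9.74% of all genes, since ratios of dim signals then count. With the floor at the 65th percentile 2 were higher and 3 lower. There Prss12 had a log2 ratio of -0.57, and Tmprss11a was under the floor in both arrays. With the floor as a filter alone 3 were higher, Prss22 being added, and 5 lower. With the offset 4 were lower, and Tmprss11a had -0.84. Prss28, Prss29, Htra1 and Ctsd passed 2-fold under all 7 alternatives. Prss28 ranged from -6.81 with no floor to -1.02 with the higher floor, and Prss29 from -5.25 to -2.75, so the sizes of these bounds follow the floor. Ctse depended on its probe set, with -0.98 as the median over probe sets and -0.08 without _x_at and _s_at probe sets, and 4 genes were lower under each. Ctsc went to -0.36 and Ctsb to -0.57 as the median over probe sets. The median over the usable proteases was -0.25, and from -0.26 to -0.09 over the alternatives. The sign of Ctsh changed under 1 alternative.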
